A study of Capra hircus with 12 samples.

Results

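The genes described here carry the interleukin-1 (IL-1) signal from the cell surface to the kinase TAK1. They were taken by name as a fixed set of 10 genes, namely IL1R1, IL1RAP, IL1RN, MYD88, IRAK1, IRAK2, IRAK3, IRAK4, TRAF6 and MAP3K7, and all 10 were found among the 28910 rows of the count tables. The rule for the set names genes and uses no measured value, but it was drawn up with earlier results of these data known. RNA was sequenced from cultured fibrocartilage cells of the goat temporomandibular joint (TMJ), the jaw joint whose condyle is covered by layered cartilage. There were 12 libraries: 3 from superficial layer cells (SLC) with IL-1β, 3 from SLC with IL-1β + LOXL2, and the same numbers from middle layer cells (MLC). Every library therefore comes from cells given IL-1β, and LOXL2, a lysyl oxidase-like enzyme that acts on collagen and elastin, is what separates the groups within a layer.

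The cells came from young female goats obtained through abattoirs and were used at early passages. LOXL2 was delivered by an adenovirus overnight, before IL-1β was given for one hour. The flow cytometry methods name an empty virus for control groups, but the culture and RNA-seq methods do not say whether the sequenced IL-1β cells received it, so effects of LOXL2 and of the virus cannot be told apart. Cells without IL-1β were not analysed here, and a response to IL-1β itself is therefore not measured by any comparison below. Nothing in the labels says that the 3 replicates of a group came from separate animals or cultures, so p-values measure the spread between these samples, which may be technical.

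IL-1β binds the receptor IL1R1, which then recruits the coreceptor IL1RAP, and the paired receptors draw in the adaptor MYD88. MYD88 assembles the kinases IRAK4, IRAK1 and IRAK2, which pass the signal to the ubiquitin ligase TRAF6 and on to TAK1, the product of MAP3K7, upstream of NF-κB and the MAP kinases. The pathway has inhibitors at each step: IL1RN, the IL-1 receptor antagonist, occupies IL1R1 without signaling, and IRAK3 (also called IRAK-M) holds back the IRAK complex. In cartilage, IL-1 signaling is known for inducing proteases that degrade the matrix.

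Library totals ranged from 14158607 to 28931652 counts, so that a gene at 0 could still be present at up to 0.104 to 0.212 CPM (counts scaled to a common library total; 3 counts of the total, counting error only). The first SLC IL-1β + LOXL2 library stood apart from the other libraries of its group. Its chi-square per degree of freedom against the others over all genes was 159 and 58.1, compared with 29.2 for the other pair of that group and 2.23 to 9.37 within the IL-1β groups. In MLC, the pairs holding the first IL-1β + LOXL2 library had values of 15.2 and 33.9, and the other pair 5.81. The members' LOXL2 effects are given with and without these libraries, and further values without them stand beside the results they change. The LOXL2 gene itself did not pass the test in either layer, with lower means in the LOXL2 groups. Its normalized count ranged from 11583 to 11894 with IL-1β and from 8541 to 10387 with IL-1β + LOXL2 in SLC, and from 14291 to 16294 and from 13808 to 15249.9 in MLC. The methods do not give the sequence of the viral LOXL2, so whether its reads were counted under this goat gene is not known.

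The joint cartilage labels were compared with marker genes. ACAN, the cartilage proteoglycan aggrecan, was present in every group, at 894 ± 47.9 normalized counts in SLC and 7451 ± 826 in MLC with IL-1β (SD, n = 3 each). COL2A1, the type II collagen that marks hyaline chondrocytes, had 0 counts in the 3 SLC IL-1β libraries and between 159 and 295 counts in the 3 MLC IL-1β libraries. COL1A1 and COL1A2 were the highest of the 9 markers listed, at 688038 and 390607 in SLC and 596920 and 304643 in MLC with IL-1β. SOX9 was at 399.6 in SLC and 1618 in MLC there, COMP at 1168 and 2348, and PRG4 at 82.7 and 111. MATN3 was at 6.63 and 7.62 and COL10A1 at 2.09 and 1.75. In bulk RNA, fewer cells that express a gene and less RNA of that gene per cell cannot be told apart, and this holds for every result below.

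**Figure D1:**
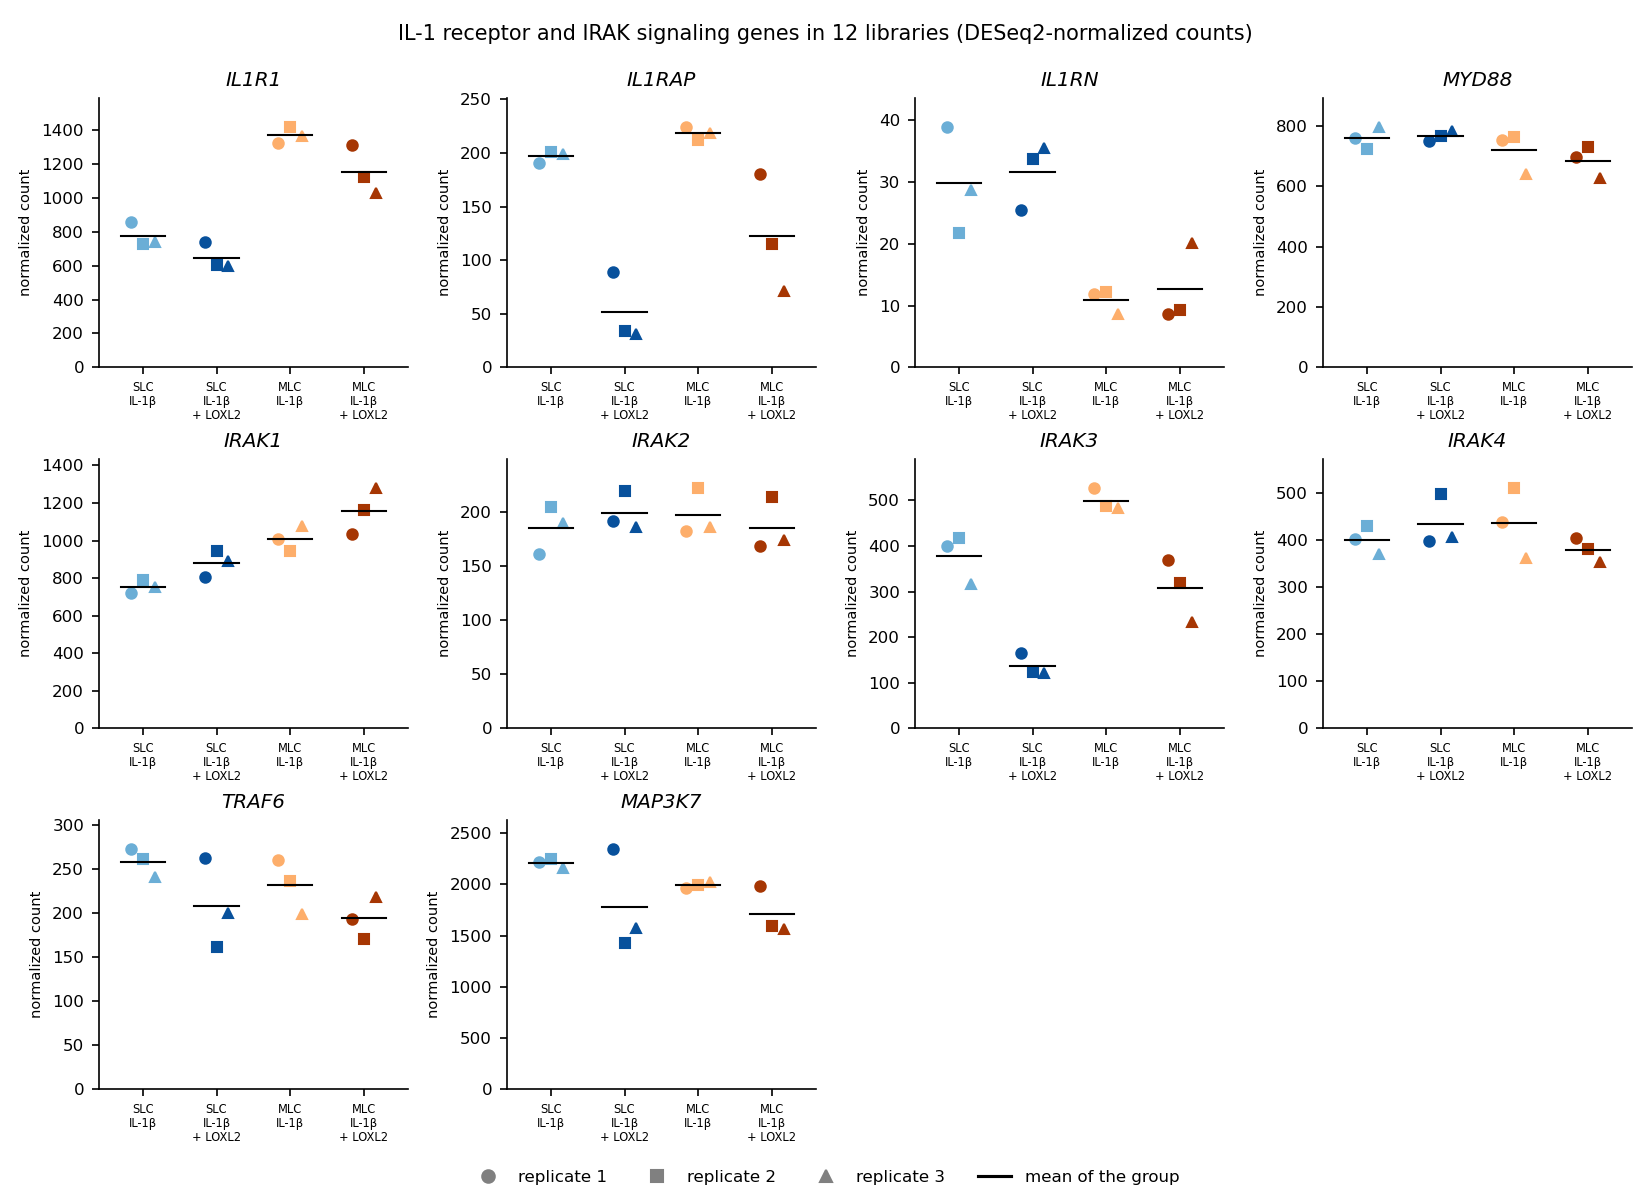
Normalized count (y axis, linear from 0, own scale per gene) of each of the 10 genes in 12 libraries, arranged by group (x axis), with 1 symbol per replicate and a line at the mean of 3 libraries. IL1RAP and IRAK3 lie lower in every IL-1β + LOXL2 library than in every IL-1β library of the same layer, IL1R1 lies higher in every MLC library than in every SLC library, and MYD88 and IRAK2 overlap between the treatments in both layers.

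The first question was whether the genes of the IL-1 pathway differed with LOXL2. The 2 genes with the lowest levels under LOXL2 relative to IL-1β alone were the coreceptor IL1RAP and the inhibitory IRAK3, in both layers. In MLC both fell, to 0.561 (IL1RAP) and 0.614 (IRAK3) of their mean level with IL-1β alone. In SLC the mean ratios were lower still, at 0.262 and 0.362, and the unadjusted p of both genes was smaller than in MLC, but no gene at all passed the adjusted threshold in SLC, where the smallest adjusted p was 0.0706. Why none passed was not tested. The other members, among them the receptor IL1R1, the adaptor MYD88, the activating kinases IRAK4, IRAK1 and IRAK2, the ligase TRAF6 and the TAK1 gene MAP3K7, did not pass the threshold in either layer.

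IL1R1 is the signaling receptor for IL-1α and IL-1β (chromosome 11, 6746282 to 6840148, goat build ARS1.2). In SLC its normalized count, scaled by DESeq2's size factors over the 12 libraries, was 859, 725 and 739 with IL-1β and 736, 604 and 599 with IL-1β + LOXL2. The groups overlapped, because the first LOXL2 library lay above the lowest IL-1β library. In MLC it was 1321, 1417 and 1362 with IL-1β and 1311, 1122 and 1027 with LOXL2, and here every LOXL2 library lay below every IL-1β library, the first by a small margin. The log2 fold change was -0.26 (standard error 0.13) in SLC and -0.25 (standard error 0.10) in MLC, and neither passed edgeR's quasi-likelihood test after adjustment over all genes by the Benjamini-Hochberg method (adjusted p = 0.167 and 0.0978).

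IL1RAP encodes the coreceptor that IL1R1 needs in order to signal, and that the IL-33 and IL-36 receptors share (chromosome 1, 76348425 to 76502431). In SLC its normalized count was 191, 200.5 and 199 with IL-1β. With LOXL2 it was 89.4, 34.3 and 31.2. The groups were far apart, and the first LOXL2 library was the nearest to the IL-1β libraries. The MLC values were 224, 212 and 219 with IL-1β and 180.5, 115 and 71.6 with LOXL2, again without overlap and with the first LOXL2 library nearest to the IL-1β libraries. This was a log2 fold change of -1.93 (standard error 0.38) in SLC, where edgeR's adjusted p was 0.0706, and -0.83 (standard error 0.25) in MLC, where it was 0.0354. Of all genes tested, 0.262% had a lower log2 fold change than IL1RAP in SLC and 2.21% in MLC.

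IL1RN encodes the secreted receptor antagonist (chromosome 11, 46473068 to 46495381). It was the member with the fewest counts, between 26 and 49 per library in SLC and between 7 and 20 in MLC. Its normalized count in SLC was 38.9, 21.7 and 28.7 with IL-1β and 25.5, 33.6 and 35.5 with LOXL2, so that the groups overlapped (log2 fold change 0.09, standard error 0.29, edgeR adjusted p = 0.811). The MLC values were 11.8, 12.2 and 8.66 with IL-1β and 8.69, 9.27 and 20.2 with LOXL2. It had too few counts there to enter the test.

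MYD88 encodes the adaptor that links the receptor pair to the IRAK kinases (chromosome 22, 11484772 to 11490413). Its normalized count was 759, 722 and 796 with IL-1β and 749, 768 and 784 with LOXL2 in SLC. MLC had 754, 763 and 641 with IL-1β and 696, 728 and 627 with LOXL2. The treatments overlapped in both layers. Its log2 fold change was 0.02 (standard error 0.096) in SLC and -0.08 (standard error 0.11) in MLC, with edgeR adjusted p of 0.891 and 0.626.

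IRAK4 is the kinase that binds MYD88 first and phosphorylates IRAK1 (chromosome 5, 36197573 to 36225712). Its gene overlaps PUS7L in the annotation, and the strand setting of the counting is not given in the sources used here, so reads of the genes may be mixed. Its normalized count was 402, 429 and 369.9 with IL-1β and 396.5, 496 and 406 with LOXL2 in SLC, and 438, 510.1 and 361 with IL-1β and 404, 380.0 and 353 with LOXL2 in MLC. The treatments overlapped in both layers. The log2 fold change was 0.12 (standard error 0.13, edgeR adjusted p = 0.496) in SLC and -0.21 (standard error 0.13, edgeR adjusted p = 0.269) in MLC.

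IRAK1 carries the signal from IRAK4 to TRAF6, and its gene lies on an unplaced sequence of the build. It was the only member whose SLC libraries with LOXL2 all lay above those with IL-1β. The normalized count there was 719, 791 and 755 with IL-1β and 806, 944 and 889.6 with LOXL2. In MLC it was 1009, 943 and 1078 with IL-1β and 1033, 1165 and 1281 with LOXL2, with an overlap. The log2 fold change was 0.22 (standard error 0.10) in SLC and 0.20 (standard error 0.11) in MLC, and neither passed edgeR's test (adjusted p = 0.137 and 0.191).

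IRAK2, a further kinase-like member of the complex (chromosome 22, 16479062 to 16533738), ranged from 162 to 205 normalized counts with IL-1β and from 187 to 219.7 with LOXL2 in SLC. In MLC it ranged from 182 to 223 and from 169 to 214.5. The treatments overlapped in both layers, with log2 fold changes of 0.11 (standard error 0.14) and -0.09 (standard error 0.15) and edgeR adjusted p of 0.569 and 0.666. The 4 group means of IRAK2 lay between 185 and 199.5 normalized counts, and neighbouring groups in the order of its levels overlapped throughout.

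IRAK3 encodes the family member that lacks kinase activity and restrains the complex, and it is best known from macrophages (chromosome 5, 46901926 to 46958965). In SLC its normalized count was 399, 417 and 317 with IL-1β and 166, 124 and 121 with LOXL2. All 3 LOXL2 libraries, the first included, lay far below the IL-1β libraries. The MLC libraries had 527, 488 and 482.5 with IL-1β and 369.7, 318 and 233 with LOXL2, without overlap. IRAK3 thus had log2 fold changes of -1.46 (standard error 0.18) in SLC and -0.71 (standard error 0.15) in MLC. In SLC IRAK3 ranked 5 of 14103 genes by unadjusted p (6.47e-05 in edgeR), and its adjusted p was 0.0706. In MLC it passed the threshold (edgeR adjusted p = 0.0199).

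TRAF6 encodes the ubiquitin ligase that activates TAK1 (chromosome 15, 15962374 to 15981433). Its normalized count was 273, 262 and 241 with IL-1β and 263, 162 and 200.0 with LOXL2 in SLC, where the first LOXL2 library lay among the IL-1β libraries. Across MLC libraries it was 261, 237 and 199 with IL-1β and 194, 171 and 219 with LOXL2. TRAF6 had log2 fold changes of -0.31 (standard error 0.19) and -0.25 (standard error 0.15), with edgeR adjusted p of 0.235 and 0.222.

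MAP3K7 encodes TAK1 (chromosome 9, 46961207 to 47035416). Its normalized count in SLC was 2219, 2249 and 2164 with IL-1β and 2347, 1431 and 1571 with LOXL2. The first LOXL2 library was the highest of the 6, and the other two were the lowest. For MLC the values were 1963, 1998 and 2025 with IL-1β and 1989, 1590.2 and 1567 with LOXL2, the first again within the range of the IL-1β libraries. MAP3K7 had log2 fold changes of -0.30 (standard error 0.19) in SLC and -0.22 (standard error 0.10) in MLC, with edgeR adjusted p of 0.239 and 0.135.

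**Figure D2:**
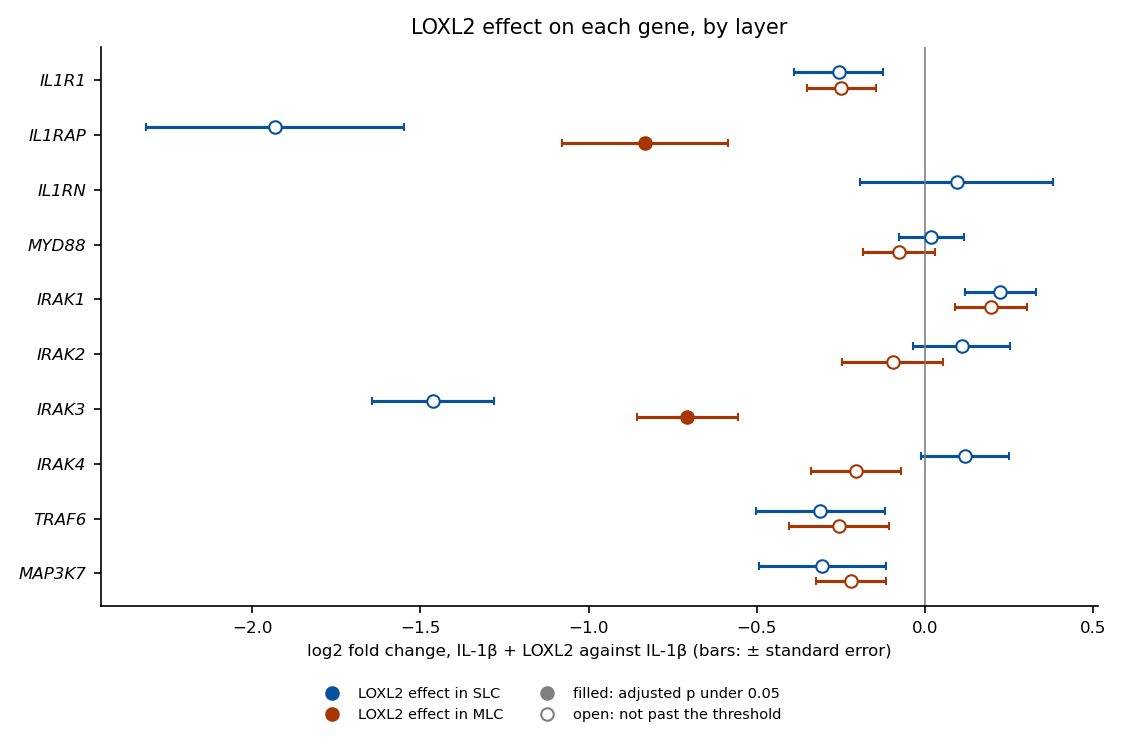
Log2 fold change of IL-1β + LOXL2 against IL-1β (x axis, bars ± standard error from edgeR) for each gene (y axis), by layer, with filled points past an adjusted p of 0.05. IL1RAP and IRAK3 lie farthest below 0 in both layers (-1.93 and -1.46 in SLC, -0.83 and -0.71 in MLC), the remaining values lie between -0.31 and 0.22, and IL1RN has no MLC value because it was not tested there.

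In SLC, 0 of the 10 members passed edgeR's adjusted threshold, as did 0.0% of all 14103 genes tested. IL1RAP and IRAK3 were the members lower at an unadjusted p under 0.05, a side on which 20.2% of all genes lay. Both were also the members whose LOXL2 libraries all lay below the IL-1β libraries, a pattern shown by 25.2% of all genes tested. The exact permutation p for a single gene was 0.1, the smallest that 3 against 3 allows. DESeq2's Wald test called the same 2 members, with 32.5% of its genes called in either direction, and edgeR's fit on all 12 libraries also called these 2, with 41.0% called. Without the first SLC IL-1β + LOXL2 library, 6 of 10 members passed edgeR's threshold, with IL1R1, IL1RAP, IRAK3, TRAF6 and MAP3K7 lower and IRAK1 higher, but so did 61.7% of all genes. IL1RAP was then at a log2 fold change of -2.58 and IRAK3 at -1.63, both with an adjusted p of 2.88e-05. The share of members that passed in SLC was thus close to that of all genes in these fits, except that fewer members than genes passed in DESeq2's test and in the fit on all libraries.

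In MLC, 2 of the 9 members tested passed edgeR's threshold, compared with 21.6% of all 13664 genes. Both fell, as did 11.8% of all genes. The groups did not overlap for IL1R1, IL1RAP and IRAK3, all lower with LOXL2, and 19.9% of all genes showed this pattern. Without the first MLC IL-1β + LOXL2 library, 5 members passed (IL1R1, IL1RAP, IRAK3 and MAP3K7 lower, IRAK1 higher), as did 48.1% of all genes, and the log2 fold changes of IL1RAP and IRAK3 were -1.25 and -0.87. The MLC calls were lost for both genes in the fit on all 12 libraries (edgeR adjusted p = 0.179 for IL1RAP and 0.174 for IRAK3) and when the second LOXL2 library or either the first or the third IL-1β library was left out (adjusted p between 0.078 and 0.128). For IL1RAP alone it was also lost without the second IL-1β library (0.0813) or the third LOXL2 library (0.0859).

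Across the whole tables, longer genes tended to have lower log2 fold changes with LOXL2. Over genes, the log2 fold change had a Spearman correlation with genomic span of -0.493 in SLC (14073 genes) and -0.488 in MLC (13637 genes), where genes are not independent replicates and share the same libraries. IL1RAP spans 154007 bases and IRAK3 57040 bases, both above the median of the genes tested (20774 bases in SLC and 21271 in MLC). With this trend removed, the log2 fold change of IRAK3 was -1.20 in SLC and -0.53 in MLC (edgeR adjusted p = 0.0734 and 0.0246), and that of IL1RAP was -1.58 and -0.57 (0.0734 and 0.0746). The IL1RAP call in MLC was thus lost. IL1R1 (93867 bases) moved to 0.10 in SLC and to 0.0028 in MLC under this setting, and MAP3K7 (74210 bases) to 0.0031 in MLC.

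**Figure D3:**
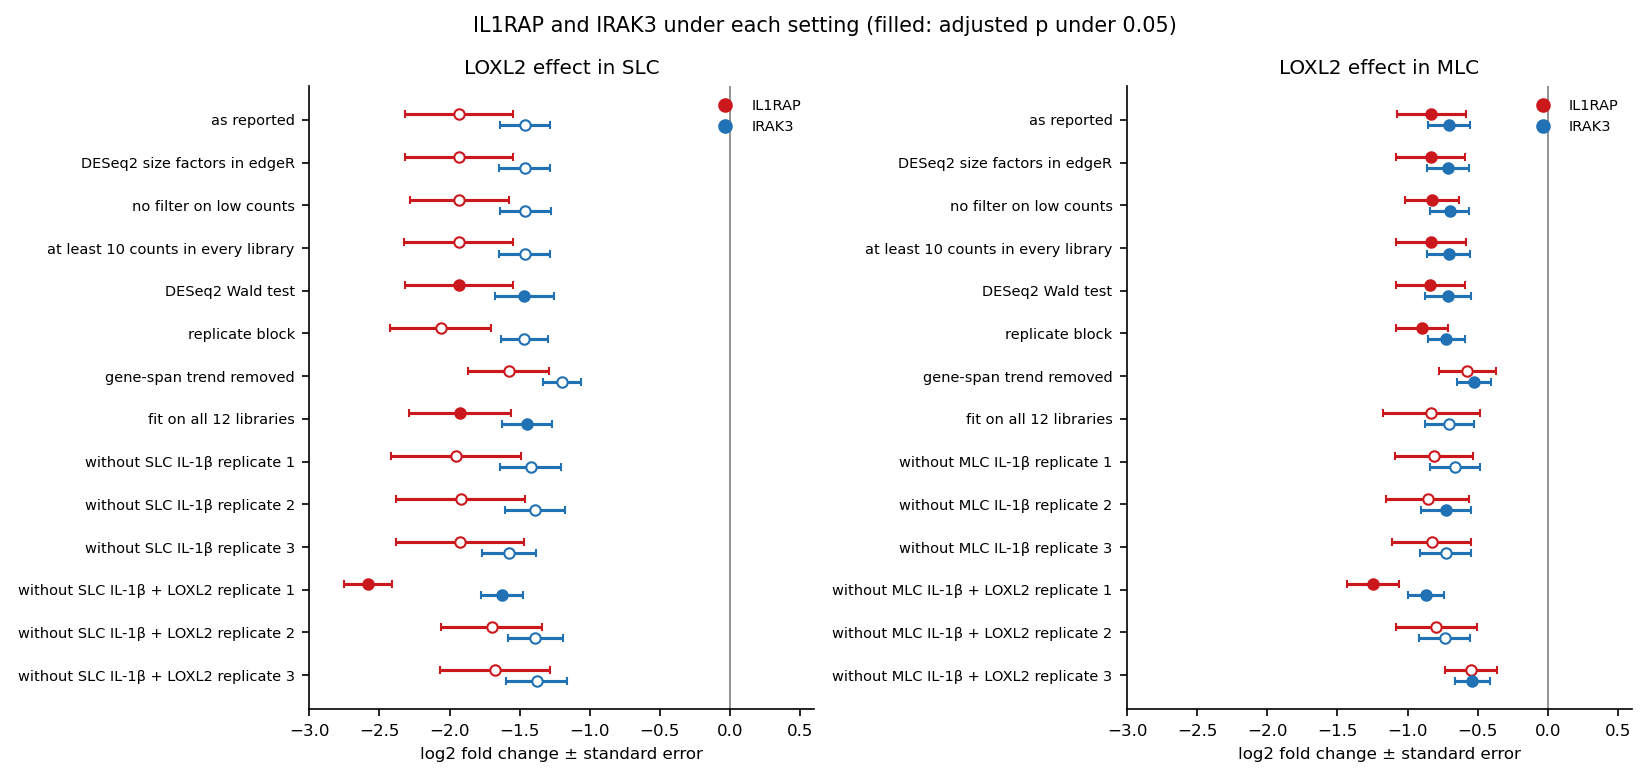
Log2 fold change with LOXL2 (x axis, bars ± standard error) of IL1RAP and IRAK3 under each setting (y axis) in SLC (left) and MLC (right), with filled points at an adjusted p under 0.05. Every point lies below 0 in both layers, the values nearest 0 in MLC being -0.55 for IL1RAP without the third LOXL2 library and -0.53 for IRAK3 with the gene-span trend removed, while which points are filled differs between settings.

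Balances within the pathway were also set out as counts of one gene per 100 counts of another in the same library, which needs no scaling between libraries. The pairs were chosen after their values had been seen and are given without a test. For each 100 IL1R1 counts there were 22.2, 27.6 and 27.0 IL1RAP counts in SLC with IL-1β and 12.1, 5.69 and 5.21 with LOXL2. In MLC there were 17.0, 14.9 and 16.1 with IL-1β and 13.8, 10.3 and 6.97 with LOXL2. In each layer every LOXL2 library lay below every IL-1β library. For each 100 counts of IRAK1 there were 55.5, 52.7 and 42.0 counts of the inhibitory IRAK3 in SLC with IL-1β and 20.6, 13.1 and 13.6 with LOXL2. In MLC there were 52.3, 51.7 and 44.8 with IL-1β and 35.8, 27.3 and 18.2 with LOXL2. Again the treatments did not overlap in either layer. Both ratios hold a gene already seen to be lower with LOXL2 and restate that difference. The antagonist IL1RN, in contrast, overlapped between the treatments, at 4.53, 3.0 and 3.89 counts for each 100 IL1R1 counts with IL-1β and 3.47, 5.57 and 5.92 with LOXL2 in SLC, and at 0.894, 0.859 and 0.636 and 0.663, 0.826 and 1.96 in MLC. These are ratios of counts and not of transcripts, since transcript lengths were not used here.

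The median log2 fold change of the members with LOXL2 was -0.12 in SLC (10 members) and -0.22 in MLC (9 members), and over all genes it was 0.01 and 0.0079. Markers of other cell types were read beside these values. The summed level of the 9 leukocyte markers ranged from 1489.0 to 1807 normalized counts with IL-1β and from 1074 to 1833 with LOXL2 in SLC, and from 1824 to 2649 and from 1593 to 1889 in MLC. Most of it was CD14, at 1446 ± 157 in SLC and 1995 ± 428 in MLC with IL-1β (SD, n = 3 each). CD68 was at 108 and 101 there, CSF1R at 30.3 and 24.9 and LAPTM5 at 23.6 and 25.7, while PTPRC, TYROBP and MS4A1 had 0 counts in all IL-1β libraries. With LOXL2 the mean of CD14 was lower (1216 ± 323 in SLC, 1607 ± 164 in MLC) and that of CD68 higher (179 ± 59.1 and 120 ± 13.7). Both overlapped between the treatments in each layer. PTPRC had at most 2 counts and TYROBP at most 6 in a LOXL2 library, so the sum holds markers that moved in different directions. Of the 5 smooth muscle and pericyte markers, ACTA2 made up most of the summed level, which was 21264 to 27406 with LOXL2 and 16302 to 18240.1 with IL-1β in MLC. ACTA2 itself was at 23357 ± 3116 and 16086 ± 1035 there and CNN1 at 1236 ± 203 and 862 ± 64.7, whereas MYH11 was at 498 ± 36.2 and 509 ± 65.6 and RGS5 at 1.54 and 2.09 (SD, n = 3 each). In SLC the summed level overlapped between the treatments (32832 to 38609 and 27164 to 35364). The part of these markers in the results for IL1RAP and IRAK3 was not tested.

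The second question was whether the layers differed in these genes, first with IL-1β alone. The receptor IL1R1 was 1.76 times as high in MLC as in SLC, and the kinase IRAK1 and the inhibitor IRAK3 were also higher in MLC, by 33.8% and 32.2%. The antagonist IL1RN was lower in MLC, at 0.365 of its SLC level. MYD88, IRAK2, IRAK4 and TRAF6 overlapped between the layers and did not pass the test.

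IL1R1 had a mean normalized count of 774 ± 73.7 in SLC and 1367 ± 48.0 in MLC with IL-1β (SD, n = 3 each), a log2 fold change of 0.84 (standard error 0.075) with an edgeR adjusted p of 4.59e-07. IRAK1 was at 755 ± 36.1 and 1010.0 ± 67.0 (log2 fold change 0.44, standard error 0.072, edgeR adjusted p = 0.000171). IRAK3 was at 378 ± 53.3 and 499 ± 24.5 (0.42, standard error 0.10, edgeR adjusted p = 0.00318). IL1RN was at 29.8 ± 8.65 and 10.9 ± 1.93 (-1.41, standard error 0.35, edgeR adjusted p = 0.00397). No library of one layer lay within the range of the other for these 4 genes.

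IL1RAP and MAP3K7 also did not overlap between the layers, but with small differences that did not pass the threshold (log2 fold changes 0.17 and -0.13, edgeR adjusted p = 0.201 and 0.0766). Among the 10 members, 4 passed the threshold, 3 of them higher and 1 lower in MLC, compared with 46.9% of all 13965 genes tested. The groups did not overlap for 6 of 10 members, compared with 56.1% of all genes. The median log2 fold change of the members was 0.13, and of all genes -0.0069. The 4 calls were kept whenever a single library was left out. IRAK3 was not called in the fit on all 12 libraries, and IL1RN was not tested where at least 10 counts in every library were required.

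With LOXL2 in both layers, IL1R1 and IRAK3 again passed the test. IL1R1 was at 646 ± 77.8 in SLC and 1153 ± 145 in MLC (SD, n = 3 each), a log2 fold change of 0.84 (standard error 0.15, edgeR adjusted p = 0.00819), the same to 2 decimals as with IL-1β alone. IRAK3 was at 137 ± 25.3 and 307 ± 69.0 (log2 fold change 1.17, standard error 0.22, edgeR adjusted p = 0.0112), and its layers did not overlap. IL1RAP was at 51.6 ± 32.7 and 122 ± 54.8 (1.26, standard error 0.49, edgeR adjusted p = 0.135), with an overlap between the layers. IL1RN was at 31.5 ± 5.29 and 12.7 ± 6.47 (-1.28, standard error 0.38, edgeR adjusted p = 0.0613), and IRAK1 at 879.8 ± 69.6 and 1160 ± 124 (0.41, standard error 0.13, edgeR adjusted p = 0.0737), both without overlap. The groups did not overlap for 5 of 10 members, compared with 35.1% of all genes, the fifth being MYD88 at a log2 fold change of -0.16 (edgeR adjusted p = 0.419).

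Among these LOXL2 libraries, the same replicate number in SLC and MLC went with shared deviations over genes (correlations 0.605, 0.206 and 0.168). The labels do not state such a pairing, so the block below rests on these same data. With the replicate number as a block, 5 of 10 members passed edgeR's threshold in place of 2, compared with 27.6% of all genes in place of 16.1%. The additional members were IL1RAP (log2 fold change 1.31, adjusted p = 0.00291), IRAK1 (0.41, adjusted p = 0.0212) and IL1RN (-1.32, adjusted p = 0.0239). Without the third SLC IL-1β + LOXL2 library 0 members were called, as were 8.09% of all genes. Without the second MLC IL-1β + LOXL2 library it was 1 member (IL1R1) and 7.92% of genes. Without the first SLC IL-1β + LOXL2 library it was 4 members and 32.9% of genes, and without the first MLC one 2 members (IL1R1 and IRAK3) and 9.78% of genes. Among these fits, the highest member counts, 5 and 4, went with the highest shares of all genes, 27.6% and 32.9%. The order of the member counts did not follow that of the shares exactly.

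**Figure D4:**
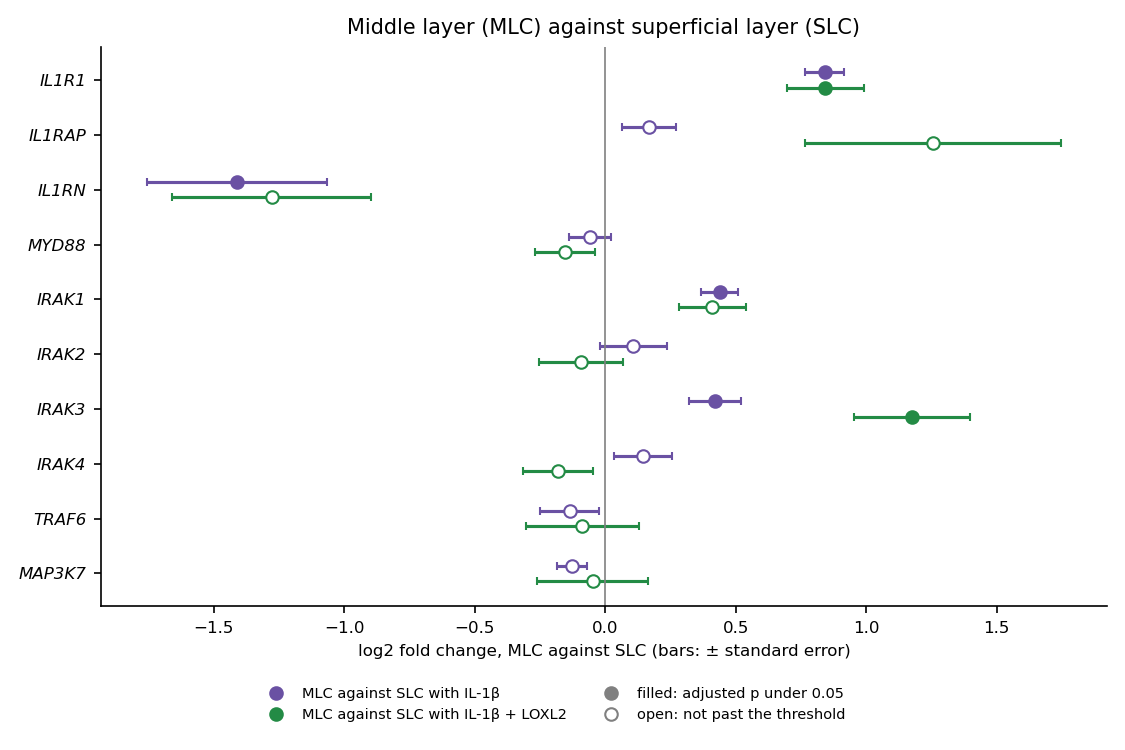
Log2 fold change of MLC against SLC (x axis, bars ± standard error from edgeR) for each gene (y axis), with IL-1β alone and with IL-1β + LOXL2, with filled points past an adjusted p of 0.05. IL1R1 sits at 0.84 in both comparisons, IRAK3 at 0.42 and 1.17, IL1RAP at 0.17 and 1.26, and IL1RN below -1.2 in both.

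Markers of cell identity also differed between the layers. COL2A1 had at most 1 count in any SLC library and between 159 and 350 counts in the MLC libraries. KRT14, a keratin, was at 3.31 normalized counts in SLC and 159 in MLC with IL-1β, and made up most of the summed level of 4 epithelial markers (7.52 to 37.1 in SLC, 133 to 181 in MLC). EPCAM was at 11.1 and 2.04, CDH1 at 3.01 and 2.09, and KRT5 at 0 in all 12 libraries. ACTA2 was at 30789 in SLC and 16086 in MLC with IL-1β. It made up most of the summed level of the 5 smooth muscle and pericyte markers (27164 to 35364 and 16302 to 18240.1). MYH11, at 665 and 509, and RGS5, at 14.2 and 2.09, were also higher in SLC, whereas CNN1 was at 837 and 862 and DES at 2.10 and 5.83. The part of these differences in the layer differences of IL1R1, IRAK1, IRAK3 and IL1RN was not tested.

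The third question was whether the LOXL2 response differed between the layers. In a model of all 12 libraries with the contrast of MLC minus SLC, IL1RAP had a difference of log2 fold changes of 1.09 (standard error 0.50, unadjusted p = 0.049 in edgeR) and IRAK3 of 0.75 (standard error 0.25, unadjusted p = 0.0108 in edgeR), that is, both were less far below 0 in MLC. Neither passed the adjustment over all genes (edgeR adjusted p = 0.959 for both). No member and 0.0% of all 14534 genes passed it, while 2 of 10 members and 2.26% of all genes had an unadjusted p under 0.05. DESeq2's Wald test also left both members short of the threshold (adjusted p = 0.988). Without the first SLC IL-1β + LOXL2 library, the differences were 1.73 and 0.90, with an edgeR adjusted p of 0.0943 for both. In that fit 3987 of all 14718 genes had an unadjusted p under 0.05 in edgeR, and 1 gene passed the adjustment. Over genes, the contrast in all 12 libraries had a Spearman correlation with genomic span of 0.332 (14501 genes). With all 12 libraries, the difference was -0.0035 (standard error 0.16) for IL1R1 and -0.34 (standard error 0.19) for IRAK4.

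The rest of the IL-1 pathway was described through 6 lists of 69 further genes, of which 64 were in the tables. In SLC, 0 of the 53 genes tested passed the threshold with LOXL2 in edgeR, while 9 higher and 12 lower had an unadjusted p under 0.05, as did 43.3% of all genes. In MLC, 3 of 51 were higher and 7 lower, beside 21.6% of all genes called. The 4 settings that removed the MLC calls of both IL1RAP and IRAK3 left 0 genes past the threshold in all, so the MLC calls with LOXL2 named below were lost there too. With the gene-span trend removed, 1994 of all genes passed in MLC in place of 2958. Values of the further genes under that setting are not given here. With IL-1β alone, 12 of 53 were higher and 15 lower in MLC than in SLC (46.9% of all genes called), and with LOXL2 4 were higher and 2 lower (16.1% of all genes). These shares lay near those of all genes or below them, and nothing particular to the lists is read from them. For the contrast of the LOXL2 response in MLC minus SLC, the count was 0, with 2 genes at an unadjusted p under 0.05.

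Few ligands of the family were measurable in these cells. IL1B, the gene of IL-1β itself, had 0 counts in 9 of 12 libraries and at most 2 in the others. IL1A, which encodes the other agonist of IL1R1, had between 37 and 95 counts per library. Its normalized count was 69.3 ± 13.0 with IL-1β and 41.5 ± 2.12 with LOXL2 in SLC (SD, n = 3 each), a log2 fold change of -0.74 that did not pass the threshold (edgeR adjusted p = 0.0706), and 76.1 ± 20.0 and 59.1 ± 8.74 in MLC (-0.36, edgeR adjusted p = 0.26).

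IL18, an IL-1 family cytokine that is matured by caspase-1, was higher in MLC than in SLC with IL-1β (424 ± 29.0 against 248 ± 22.0, log2 fold change 0.79, edgeR adjusted p = 1.18e-05). With LOXL2 the difference was 0.58 and did not pass (edgeR adjusted p = 0.0648). IL33, an alarmin kept in the nucleus, was largely a gene of SLC, with 26 to 34 counts there with IL-1β and 0 to 3 counts in MLC (edgeR adjusted p = 7.7e-05). With LOXL2 it had 18 to 41 counts in SLC and at most 1 count in MLC (edgeR adjusted p = 0.00479), and no fold is given at such counts. IL36B was lower in MLC with IL-1β (log2 fold change -1.44, edgeR adjusted p = 0.013) and with LOXL2 (-1.84, edgeR adjusted p = 0.0167), at 3 to 39 counts per library.

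Among the other receptors, the decoy receptor IL1R2 had at most 3 counts and the IL-33 receptor IL1RL1 at most 1 count in any library. IL18RAP, the coreceptor for IL-18, had 0 counts in all 12 libraries, while its partner IL18R1 had at least 90 in each. IL18R1 was at 195 ± 4.07 with IL-1β and 87.1 ± 22.7 with LOXL2 in SLC (log2 fold change -1.16, edgeR adjusted p = 0.0706) and at 199 ± 35.5 and 145 ± 26.1 in MLC (-0.47, edgeR adjusted p = 0.074). SIGIRR, a receptor of the family that dampens IL-1 signaling, was higher in MLC than in SLC, at 121 ± 9.20 against 24.8 ± 4.02 with IL-1β (log2 fold change 2.30, edgeR adjusted p = 2.61e-07). With LOXL2 it was at 167 ± 21.3 against 48.2 ± 29.1 (1.79, edgeR adjusted p = 0.0191).

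**Figure D5:**
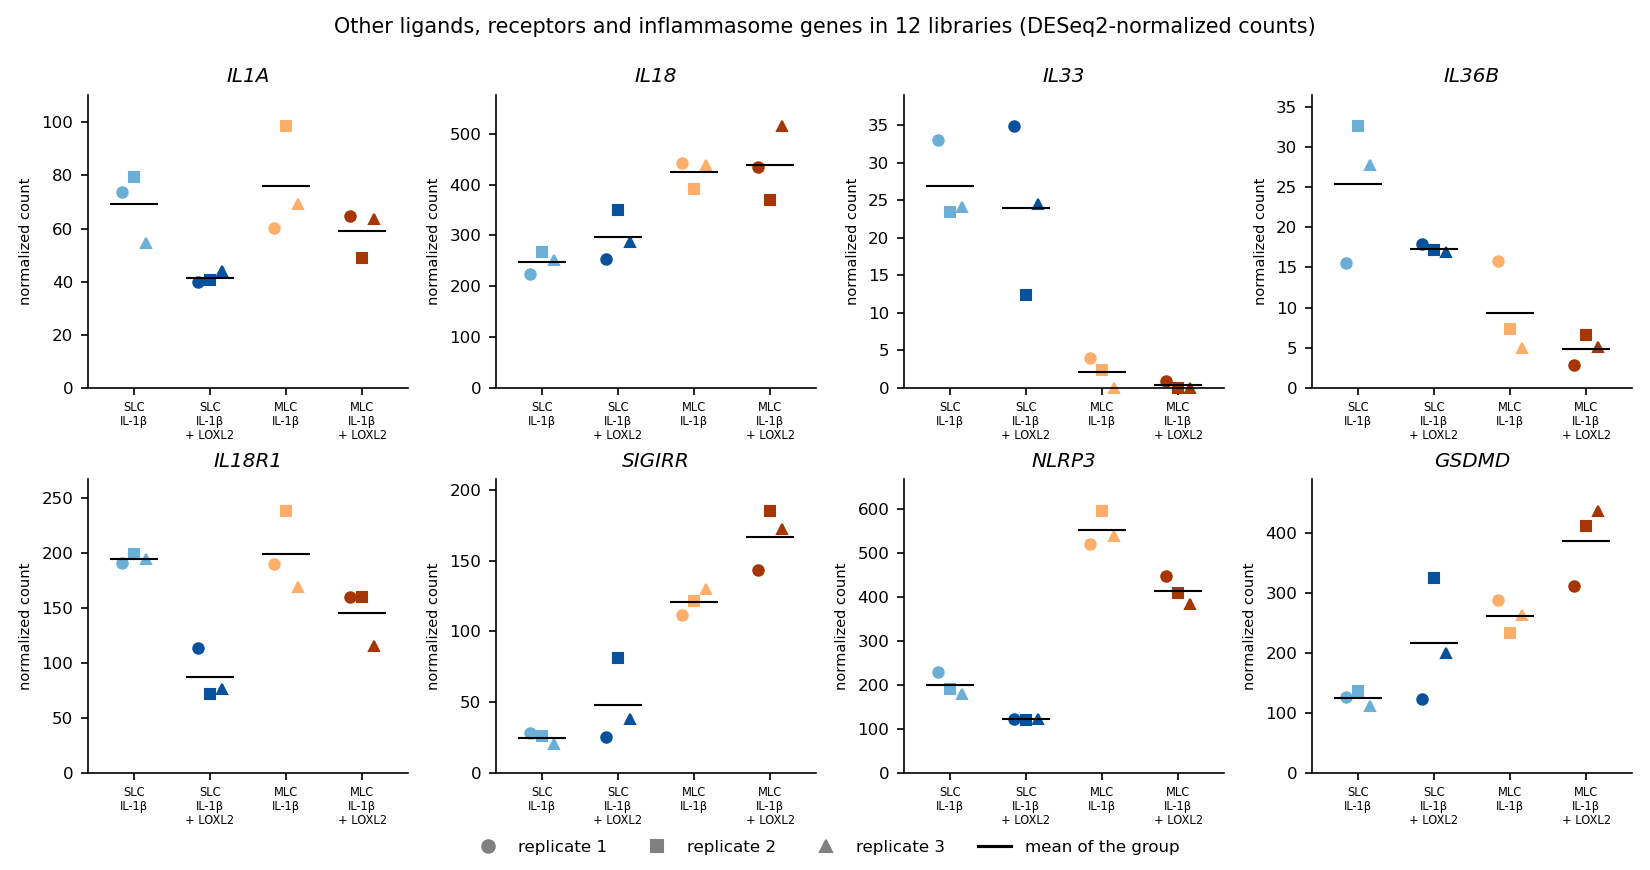
Normalized count (y axis, linear from 0, own scale per gene) of 8 further genes of the pathway in 12 libraries, by group (x axis), with 1 symbol per replicate and a line at the mean of 3 libraries. IL33 lies near 0 in the MLC libraries, SIGIRR, NLRP3 and GSDMD lie higher in MLC than in SLC with IL-1β, and IL18R1 lies lower with LOXL2 than with IL-1β in every SLC library.

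Around the receptor complex, PELI1, a ubiquitin ligase that acts on the IRAK kinases, fell with LOXL2 in MLC (596 ± 5.27 to 461 ± 64.9, log2 fold change -0.37, edgeR adjusted p = 0.0402). It was the only one of 14 adaptors and regulators past the threshold there, and it was also lower in MLC than in SLC with IL-1β (-0.57, edgeR adjusted p = 9.68e-06). In that layer comparison, with 46.9% of all genes called, 3 of the 14 were higher and 5 lower, among them TRAF5 (-0.82, edgeR adjusted p = 0.0319) and SARM1 (-0.73, edgeR adjusted p = 0.000334). Of 14 genes listed for ubiquitin chains and their removal, OTUD7B, a deubiquitinase, fell with LOXL2 in MLC (-0.43, edgeR adjusted p = 0.0436). Between the layers with IL-1β, 3 of the 14 were higher and 2 lower, again beside 46.9% of all genes, with OTULIN at 0.29, RNF31 at -0.27 and TNIP2 at 0.24. The LOXL2 effect in SLC, where no gene passed, was -0.56 for PELI1 and -0.50 for OTUD7B (edgeR adjusted p = 0.0706 and 0.0769).

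Of the 17 TAK1 partners and downstream kinases tested, 2 rose and 4 fell with LOXL2 in MLC, beside 21.6% of all genes called and 11.8% lower. TAB3, which links TAK1 to ubiquitin chains, fell (496 ± 33.1 to 336 ± 75.3, log2 fold change -0.56, edgeR adjusted p = 0.0256). The p38 kinases MAPK11 (570 ± 42.7 to 827 ± 142, 0.53, edgeR adjusted p = 0.0234) and MAPK12 (1049 ± 97.9 to 1448 ± 289, 0.46, edgeR adjusted p = 0.0389) rose. With IL-1β alone, 2 were higher and 6 lower in MLC than in SLC (46.9% of all genes called), among them MAP2K3, which activates p38 (0.61), MAP3K8 (-0.59) and TAB2 (-0.53). With LOXL2, MAP2K3 (0.52) and MAP2K7 (0.44), an activator of JNK, were higher in MLC, and no other kinase of the list passed. TAB3, MAPK11 and MAPK12 had LOXL2 effects of -0.69, 0.75 and 0.73 in SLC, where no gene passed (edgeR adjusted p = 0.0746, 0.0706 and 0.0706).

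NLRP3, the sensor of the inflammasome that activates caspase-1, was at 199 ± 25.7 in SLC and 551 ± 39.5 in MLC with IL-1β (log2 fold change 1.49, edgeR adjusted p = 3.74e-08) and at 121 ± 1.14 and 413 ± 31.7 with LOXL2 (1.78, edgeR adjusted p = 0.000303). It fell with LOXL2 in MLC (-0.42, edgeR adjusted p = 0.0254). GSDMD, the pore-forming gasdermin cut by caspase-1, rose with LOXL2 in MLC (262 ± 27.5 to 386 ± 66.6, 0.56, edgeR adjusted p = 0.0273) and was higher in MLC than in SLC with IL-1β (1.09, edgeR adjusted p = 5.99e-06). In SLC, where no gene passed, the LOXL2 effect was -0.71 for NLRP3 and 0.80 for GSDMD (edgeR adjusted p = 0.0706 and 0.104). CASP1 and PYCARD were looked for, but no row of the count tables carried these names, so they were not analysed here.

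Leaving out the first LOXL2 library of a layer also moved these genes. In MLC without it, PELI1 (log2 fold change -0.49), OTUD7B (-0.60), TAB3 (-0.76), MAPK11 (0.68), MAPK12 (0.62), NLRP3 (-0.48) and GSDMD (0.70) kept their calls, and IL18R1 (-0.55, edgeR adjusted p = 0.0219) and SIGIRR (0.56, edgeR adjusted p = 0.00741) passed as well. MAP2K3 (0.19) and MAP2K7 (0.21) also passed, in a fit that called 48.1% of all genes. In SLC without it, IL18R1 (-1.40, edgeR adjusted p = 3.85e-05) and IL1A (-0.72, edgeR adjusted p = 0.0195) passed, in a fit that called 61.7% of all genes. PELI1, OTUD7B, TAB3 and NLRP3, all lower, also passed in that fit (edgeR adjusted p between 3.73e-05 and 0.00195). So did MAPK11, MAPK12, GSDMD, SIGIRR, MAP2K3 and IL18, all higher (edgeR adjusted p between 4.74e-05 and 0.034). MAP2K7, IL33 and IL36B did not pass there (edgeR adjusted p = 0.272, 0.205 and 0.191). Between the layers with LOXL2, the calls of IL36B (edgeR adjusted p = 0.0731), MAP2K3 (0.0777) and MAP2K7 (0.0653) were lost without the first MLC LOXL2 library, whereas those of SIGIRR (1.90, edgeR adjusted p = 0.046) and NLRP3 (1.72, edgeR adjusted p = 0.00287) were kept. Without the first SLC LOXL2 library, all of these calls were kept, in a fit that called 32.9% of all genes. IL18R1 (0.99, edgeR adjusted p = 0.00886), MAPK11 (-0.71, edgeR adjusted p = 0.0102) and MAPK12 (-0.68, edgeR adjusted p = 0.0204) passed there as well.

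Across the 12 libraries, the genes whose log2 CPM were most like those of IL1R1, among 9535 genes with at least 100 counts in every library, were ANTXR2 (Pearson r = 0.987), KIAA1217 (0.984), SCFD2 (0.979), AHR (0.979) and UNC5B (0.978). For IRAK2 they were FARP2 (0.856), CCDC157 (0.813), PQLC2 (0.785), PCGF3 (0.747) and PER1 (0.724). These values describe likeness over libraries that fall into 4 groups and share their depth, and no test is attached to them.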

How the data were processed

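RNA-seq of cultured goat TMJ cells was analysed in 12 libraries. The files the authors deposited hold unnormalized read counts per gene, with 1 table per layer, and the submitters' processing notes name HISAT2 and featureCounts with the goat build ARS1.2. Strand and multi-mapping settings are not given in the sources used here. The labels name an RNeasy kit and the methods TRIzol. Gene positions are from the RefSeq annotation of the same build, in which 28884 of 28910 rows were matched.

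Tests used edgeR 4.0.16 under R 4.3.3 (quasi-likelihood test, TMM, filterByExpr's minimum of 10 counts and 15 in total, Benjamini-Hochberg over all genes tested, threshold 0.05) in the 6 libraries of each comparison, and in all 12 for the difference of effects. Standard errors were obtained by dividing the log2 fold change by the root of the F statistic. Normalized counts used DESeq2 1.42.0 size factors and are given as mean ± SD. For single values, the exact permutation test was two-sided. Depth, 14158607 to 28931652 counts per library, sets the counting precision.

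All members were named. Of the other lists, the genes named were at most 3 per list and comparison with the largest absolute log2 fold change past the threshold, and each ligand or receptor with at least 10 counts in a library. IL1B, IL1R2, IL1RL1 and IL18RAP were named after their values were seen. The members and lists were chosen with earlier results of these data known. Replicate numbers were taken to pair samples only for the LOXL2 libraries of the layers, where each pair's deviations correlated above 0.1. The pairing comes from the data, since the labels do not state it.

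The alternatives were DESeq2's size factors, no filter, a minimum of 10 counts in all libraries of a comparison, the Wald test of DESeq2, a replicate block, removal of the gene-span trend (lowess with smoother span 0.3, as an offset), a fit on all 12 libraries and leaving out each library. The span trend was known from an earlier analysis. The block combined with it was added after seeing the data. The procedure was tested on simulated data in which each gene's counts were drawn independently. Such data hold no deviations shared over the genes of a library, so the simulation says nothing about their effect.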

Additional observations from a re-analysis of the deposited data

How the results depend on the processing

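The number of members called, or of all genes called, moved by more than 1.5 times from the reported count in these settings. In SLC it was 0 as reported and 2 with DESeq2's Wald test (4234 genes called in all) and in the fit on all 12 libraries (5965 genes). In MLC it was 2 as reported, 1 with the gene-span trend removed and 0 in the fit on all 12 libraries, where 0 genes passed in all. For the layers with IL-1β, the fit on all 12 libraries called 3715 genes in place of 6548, and 3 members in place of 4. For the layers with LOXL2, 5 members were called with DESeq2's Wald test, with the span trend removed, in the fit on all 12 libraries (4199 genes), with the replicate block (3887 genes) and with the replicate block and the span trend removed together (4474 genes). With single libraries left out, the genes called ranged from 0 to 8849 in SLC (members 0 to 6), from 0 to 6653 in MLC (members 0 to 5), from 1140 to 4679 between the layers with LOXL2 (members 0 to 4) and from 0 to 1 for the difference of effects, and the highest count came in each of the first 2 without the first LOXL2 library of that layer.

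The replicate block gave 0 members called in SLC, 2 in MLC (4053 genes) and 4 between the layers with IL-1β, and changed no other member's call. Numbers there did not go with shared deviations (correlations 0.0302, -0.227 and 0.124 in SLC, 0.0806, 0.11 and -0.052 in MLC, and -0.0472, -0.0893 and -0.0462 between the layers with IL-1β).

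Over the members, 612 values under alternatives kept their direction and their side of the threshold, 31 became calls, 15 calls were lost and 36 values changed sign, all of members that were not called. With the span trend removed, the log2 fold change was 0.10 for IL1R1 and -0.24 for MYD88 in SLC, 0.0028 for IL1R1, 0.087 for IRAK2 and 0.0031 for MAP3K7 in MLC, and the difference of effects was 0.0057 for MYD88 and 0.050 for IRAK1. The difference for IL1R1 was 0.014 with DESeq2's size factors, 0.010 with no filter and 0.014 with DESeq2's Wald test. With single libraries left out, the range was -0.099 to 0.33 for IL1RN and -0.021 to 0.051 for MYD88 in SLC, -0.21 to 0.00070 for IRAK2 in MLC, -0.10 to 0.019 for MYD88 between the layers with IL-1β, and -0.24 to 0.13 for TRAF6 and -0.19 to 0.21 for MAP3K7 with LOXL2. For the difference of effects it was -0.10 to 0.096 for IL1R1, -0.39 to 0.37 for IL1RN, -0.12 to 0.041 for IRAK1, -0.11 to 0.25 for TRAF6 and -0.060 to 0.32 for MAP3K7. The cause of these moves was not tested, beyond the smaller number of samples when a library is left out. Depth limits IL1RN most, at 7 to 20 counts per MLC library.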
